A study of Mus musculus with 4 samples.

Results

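Genes that mark macrophages, dendritic cells, neutrophils, eosinophils and mast cells were followed in mouse colon, 45 of the 46095 gene symbols in the deposited count table. They were taken by symbol from a list: 21 macrophage genes, 7 dendritic cell genes, 5 neutrophil genes, 3 eosinophil genes and 9 mast cell genes. The tissue was colon of C57BL/6 mice at postnatal day 21. The Esr2-KO group (genotype Esr2-/-, loss of the gene of estrogen receptor β) and the wild-type group (WT) had 2 libraries each, named here Esr2-KO 1, Esr2-KO 2, WT 1 and WT 2. The labels give neither sex, litter, the deleted part of Esr2, nor whether a group's 2 libraries are 2 animals, so that p-values measure the spread between these libraries. The comparison asks whether myeloid and mast cell transcripts of the colon differed between the genotypes.

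Macrophages of the gut wall depend on the receptor Csf1r and its ligands, clear dying cells and microbes, and make complement C1q. Dendritic cells grow under Flt3 and carry antigen to lymph nodes. Neutrophils and eosinophils are granulocytes that come from the marrow, the eosinophil being a resident of the healthy gut. Mast cells store histamine and proteases in granules, with Mcpt1 and Mcpt2 typical of mouse mucosa and Cma1, Mcpt4 and Tpsb2 typical of connective tissue such as the submucosa.

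Library totals lay between 30826790 and 33709643 counts, and levels are given as CPM, the usual scaling of counts to library size, on totals adjusted by TMM (edgeR's trimmed mean of M values). Esr2 itself had 6 and 16 counts in Esr2-KO and 21 and 13 counts in WT, too few to check the labels. Epithelial genes such as Krt8 and Epcam were abundant in all 4 libraries. The library Esr2-KO 2 stood apart, with 19.7% of its counts in 28 genes of the exocrine pancreas, against 0.404% in Esr2-KO 1, 0.258% in WT 1 and 0.291% in WT 2. For most results that rest on it, values with and without it are given.

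Of the 36 members with enough counts for a test, 0 were called higher and 0 lower by edgeR (quasi-likelihood, Benjamini-Hochberg over all genes, threshold 0.05). Of all 17169 tested genes, 1.30% were called higher and 1.39% lower, 2.69% in all. At an unadjusted p under 0.05 stood 8 of the 36, against 20.6% of all tested genes, with 4 members higher (9.69% of all genes) and 4 lower (10.9%). The libraries of the groups did not overlap for 18 of the 36, against 54.7% of all tested genes, with 8 members higher (27.0% of all genes) and 10 lower (27.7%). The members were thus near the background on each of these counts. The median log2 fold change, Esr2-KO over WT, was -0.03 over the members and -0.0031 over all tested genes. With DESeq2 or edgeR's likelihood ratio test the inhibitory Fc receptor Fcgr2b (lower) and the mast cell chymase Cma1 (higher) passed, and with limma-voom no member did. DESeq2 and the likelihood ratio test also called more of all genes. DESeq2 called 811 higher and 882 lower of 16611, and the likelihood ratio test 565 higher and 776 lower of 17169.

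**Figure D1:**
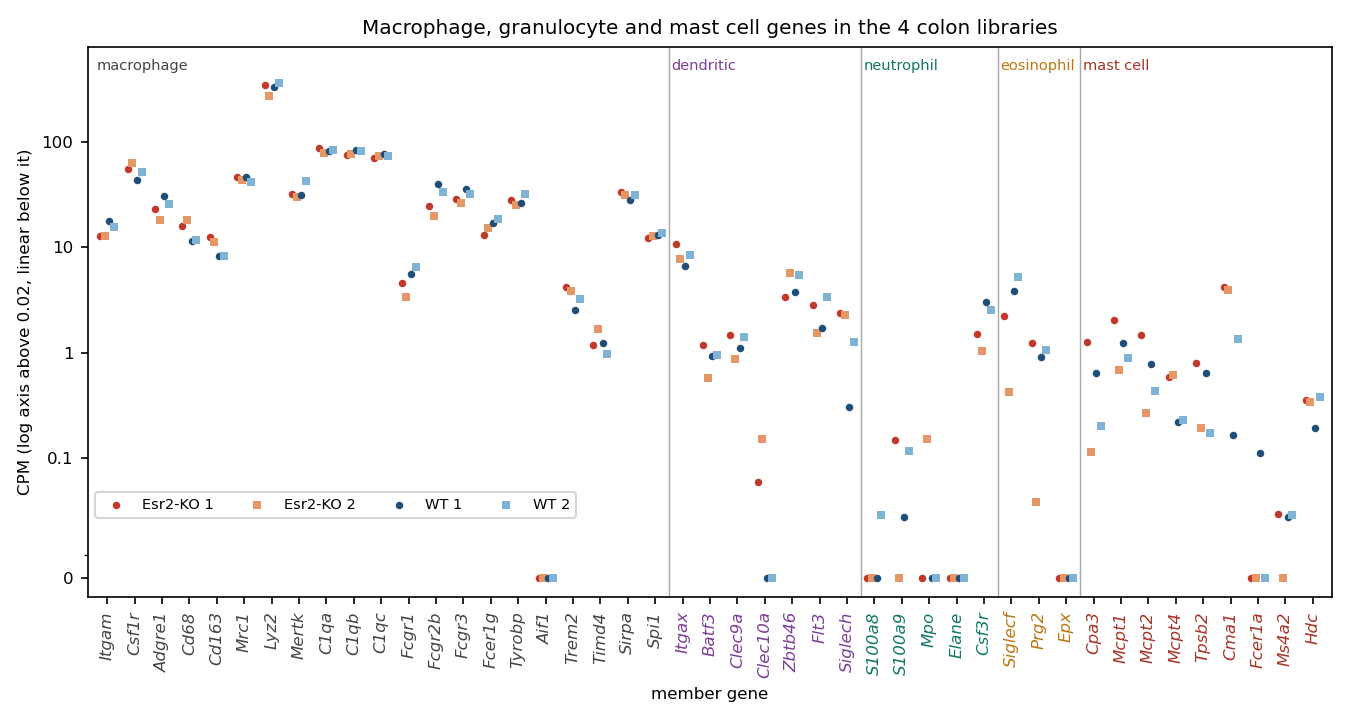
Level of each of the 45 members (CPM, logarithmic above 0.02) in each of the 4 libraries, 1 point per library, with classes separated by lines. Macrophage genes reached 352 CPM and lay close together in the 4 libraries, while eosinophil and mast cell genes mostly lay below 5 CPM and were spread within a group, with Aif1, Elane and Epx at 0 throughout.

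Of the 45 members, 9 held too few counts to be tested. Aif1, which encodes the macrophage protein Iba1, was listed at 0 in every library although the other 20 macrophage genes were all detected, and the neutrophil elastase Elane and the eosinophil peroxidase Epx were at 0 as well. The pancreatic trypsinogen Prss2 and the T cell receptor gene Trac were listed at 0 too, the first even in the library with 19.7% pancreatic counts. Laptm5, a gene of all leukocytes, had only 8 to 14 counts per library, where the leukocyte gene Ptprc had 519 to 1286. A 0 or a low count in this table therefore need not mean that the RNA was low, and no limit on expression is given for Aif1, Elane and Epx. The other 6 had 1 to 10 counts over all libraries together and are described with their classes.

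Levels per kilobase of annotated exon put macrophage products far above the rest. Lysozyme Lyz2 stood at 237 CPM per kb in Esr2-KO and 263 CPM per kb in WT (means of 2 libraries), followed by C1qa with 80.4 and 80.6 CPM per kb. C1qb had 69.8 CPM per kb in Esr2-KO and 76.4 CPM per kb in WT. The adaptor Tyrobp and C1qc came next, with Tyrobp at 41.7 and 38.0 CPM per kb and C1qc at 36.4 and 38.5 CPM per kb in the Esr2-KO libraries, where the pair overlapped. The 8 members highest per kilobase held the same order in both groups, down to Fcer1g, Fcgr3 and Cd68. The mast cell chymase Cma1 stood at rank 16 in Esr2-KO and rank 24 in WT. Lyz2 is uncertain, since 15.4% of its 50-base transcript windows also occur in another transcript, mostly the Paneth cell lysozyme Lyz1.

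Sequences before the transcription start are shown for genes of different behaviour, because the myeloid factor PU.1 (made from Spi1, itself a member) and the GATA factors of mast cells are known to act at such genes. RefSeq (GRCm38.p6) gave windows of 250 bases for 35 of the 45 members. The letters GAGGAA, a core of PU.1 sites, and AGATAA or TGATAA, forms of the GATA site, were searched on both strands. GAGGAA or its complement was present in 10 of 16 windows of macrophage genes (62.5%) and in 23.3% of all 32851 windows, and in 1 of 7 windows of mast cell genes. It was present in 1 of 6 windows of dendritic cell genes, in 4 of 5 of neutrophil genes and in 1 of 2 of eosinophil genes. The GATA letters were present in 5 of 7 windows of mast cell genes (71.4%), in 0 of 16 of macrophage genes and in 16.6% of all windows. They were in 2 of 6 windows of dendritic cell genes, 1 of 5 of neutrophil genes and 0 of 2 of eosinophil genes. These are matches of letters, not sites of binding.

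The windows below run 5′ to 3′ on the gene's strand, end at the base before the RefSeq start and have the letters searched in capitals (TTCCTC is GAGGAA on the other strand). For C1qb, Cd68 and Mcpt1 the stretch from that start was in no transcript of the gene in GENCODE M21, the annotation used for exon lengths. GENCODE M21 starts these genes only a few bases further in, at 136886187, 69666153 and 56017971. C1qb (chr4:136886201-136886450 minus strand) is the complement gene with the smallest error, Cd68 (chr11:69666171-69666420 minus strand) was among the macrophage genes with positive fold changes and Fcgr1 (chr3:96293970-96294219 minus strand) among those with negative ones, and each held 1 match of GAGGAA. Siglecf (chr7:43351091-43351340 plus strand) is shown for the eosinophils.
C1qb: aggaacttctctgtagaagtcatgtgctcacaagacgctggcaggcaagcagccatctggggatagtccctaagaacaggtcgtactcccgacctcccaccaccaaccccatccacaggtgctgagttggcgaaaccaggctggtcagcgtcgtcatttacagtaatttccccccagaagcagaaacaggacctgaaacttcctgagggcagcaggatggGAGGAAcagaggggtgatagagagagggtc
Cd68: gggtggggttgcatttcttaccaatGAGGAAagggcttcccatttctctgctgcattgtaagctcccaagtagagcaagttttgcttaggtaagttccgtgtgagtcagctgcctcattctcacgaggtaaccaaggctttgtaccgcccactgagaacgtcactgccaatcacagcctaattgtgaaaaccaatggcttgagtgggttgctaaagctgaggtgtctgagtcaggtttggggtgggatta
Fcgr1: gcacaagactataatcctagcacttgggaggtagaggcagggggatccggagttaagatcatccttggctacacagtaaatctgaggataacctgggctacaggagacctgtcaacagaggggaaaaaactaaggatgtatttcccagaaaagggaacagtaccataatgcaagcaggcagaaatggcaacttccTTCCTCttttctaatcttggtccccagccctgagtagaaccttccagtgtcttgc
Siglecf: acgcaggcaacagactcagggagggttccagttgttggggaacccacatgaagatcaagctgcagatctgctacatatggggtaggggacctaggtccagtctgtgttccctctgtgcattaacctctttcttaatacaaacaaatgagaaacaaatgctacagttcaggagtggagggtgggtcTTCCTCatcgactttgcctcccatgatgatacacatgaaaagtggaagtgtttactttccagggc
Of the mast cell genes, Cpa3 (chr3:20242182-20242431 minus strand) and Mcpt1 (chr14:56017714-56017963 plus strand) each held 1 GATA match. Cma1 (chr14:55944676-55944925 minus strand) held none of the letters searched, but it holds AGATAG on the other strand.
Cpa3: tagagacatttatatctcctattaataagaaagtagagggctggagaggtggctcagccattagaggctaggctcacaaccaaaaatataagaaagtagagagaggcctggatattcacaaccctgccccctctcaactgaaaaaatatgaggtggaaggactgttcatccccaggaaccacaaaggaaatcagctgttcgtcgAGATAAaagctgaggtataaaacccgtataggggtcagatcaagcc
Mcpt1: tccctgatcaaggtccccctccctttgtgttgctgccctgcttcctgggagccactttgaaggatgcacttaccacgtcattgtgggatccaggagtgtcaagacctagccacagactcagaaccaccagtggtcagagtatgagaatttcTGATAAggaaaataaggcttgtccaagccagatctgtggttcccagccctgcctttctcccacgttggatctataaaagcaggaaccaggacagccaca
Cma1: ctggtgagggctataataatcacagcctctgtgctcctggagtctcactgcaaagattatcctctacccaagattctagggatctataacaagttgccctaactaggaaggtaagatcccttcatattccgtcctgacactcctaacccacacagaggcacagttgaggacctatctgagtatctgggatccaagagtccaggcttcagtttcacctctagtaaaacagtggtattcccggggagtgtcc
None of the genes of the 3 macrophage windows shown passed the test, and a link between these letters and the fold changes was not tested.

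Of the 21 macrophage genes 20 could be tested and none passed, with 7 positive, 13 negative and a median log2 fold change of -0.12 (-0.28 with library totals in place of TMM). Their summed level was 935 and 838 CPM in Esr2-KO and 935 and 970 CPM in WT. Of these sums Lyz2, uncertain as said above, made up 352 and 271 CPM in Esr2-KO and 332 and 361 CPM in WT. In bulk tissue fewer cells of a type and less RNA per cell cannot be told apart.

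The complement genes C1qa, C1qb and C1qc, 3 neighbours on chromosome 4 (GRCm38, GENCODE M21 from 136880129 to 136898803) that encode the chains of C1q, had the narrowest errors. C1qa stood at 88.1 and 79.1 CPM in Esr2-KO and 82.9 and 84.6 CPM in WT, overlapping groups. The fitted difference was -0.0027 ± 0.11 on the log2 scale (here and below ± SE, n = 2 libraries a group), its unadjusted 95% interval -0.27 to 0.26. C1qc likewise overlapped, with 70.2 and 74.3 CPM in Esr2-KO and 76.2 and 73.2 CPM in WT (-0.05 ± 0.11). C1qb stood slightly lower in both Esr2-KO libraries, 75.0 and 76.8 CPM against 84.0 and 82.3 CPM in WT (-0.13 ± 0.10, edgeR adjusted p = 0.516).

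Scavenger and identity markers of macrophages did not go one way. Cd68, a lysosomal glycoprotein, stood at 16.1 and 18.0 CPM in Esr2-KO and 11.6 and 11.7 CPM in WT, 0.55 ± 0.17 on the log2 scale (edgeR adjusted p = 0.138). Cd163, the receptor that takes up haemoglobin bound to haptoglobin, stood at 12.4 and 11.2 CPM in Esr2-KO and 8.26 and 8.28 CPM in WT, 0.51 ± 0.19 (edgeR adjusted p = 0.196). In both genes each Esr2-KO library lay above each WT library. Adgre1, which encodes the F4/80 antigen, lay the other way, with 23.0 and 18.0 CPM in Esr2-KO and 30.7 and 25.8 CPM in WT (-0.46 ± 0.18, edgeR adjusted p = 0.207). Itgam, the integrin CD11b, was lower in both Esr2-KO libraries as well, at 12.9 and 12.8 CPM against 17.9 and 15.6 CPM in WT (-0.38 ± 0.17, edgeR adjusted p = 0.267), and 72.4% of its windows are shared with the annotated transcript Gm49368.

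The opposite signs can be read without any scaling. Per Adgre1 count there were 0.538 and 0.621 Cd163 counts in Esr2-KO and 0.269 and 0.321 in WT, and 0.697 and 0.998 Cd68 counts in Esr2-KO and 0.378 and 0.452 in WT. These pairs were chosen after the values were seen and were given no test. The mannose receptor Mrc1 overlapped between the groups, with 46.6 and 43.6 CPM in Esr2-KO and 46.7 and 41.9 CPM in WT (0.03 ± 0.12, unadjusted 95% interval -0.27 to 0.32, and -0.13 with library totals).

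Csf1r, the growth factor receptor that macrophages live by, stood at 55.9 and 63.9 CPM in Esr2-KO and 43.8 and 52.0 CPM in WT. Both Esr2-KO libraries lay above both WT libraries, a difference of 0.32 ± 0.14 in log2 (edgeR adjusted p = 0.250). On the opposite strand exons of Hmgxb3 overlap Csf1r, and the sources used here do not give whether the counting used strand. Spi1, the gene of the transcription factor PU.1, was at 12.2 and 12.8 CPM in Esr2-KO and 13.2 and 13.7 CPM in WT (-0.10 ± 0.17). Lyz2 overlapped, with 352 and 271 CPM in Esr2-KO and 332 and 361 CPM in WT (-0.15 ± 0.17).

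The IgG receptor genes Fcgr1, Fcgr2b and Fcgr3 and the signalling chain Fcer1g each lay lower in both Esr2-KO libraries than in both WT libraries, and none passed the test. Of the 20 tested macrophage genes 8 lay lower in this way (27.7% of all tested genes did) and 5 lay higher (27.0%). The inhibitory receptor Fcgr2b came nearest to the threshold of all members, with 24.9 and 19.7 CPM in Esr2-KO and 40.1 and 33.2 CPM in WT. Its log2 fold change was -0.72 ± 0.17 (unadjusted 95% interval -1.13 to -0.30, edgeR adjusted p = 0.0857). The activating receptors Fcgr1 and Fcgr3 had 4.59 and 3.38 CPM, and 28.9 and 26.4 CPM, in Esr2-KO against 5.59 and 6.44 CPM, and 36.1 and 31.9 CPM, in WT. Their log2 fold changes were -0.59 ± 0.27 and -0.30 ± 0.14 (edgeR adjusted p = 0.285 and 0.283). The chain Fcer1g had 13.1 and 15.1 CPM in Esr2-KO and 17.0 and 18.7 CPM in WT (-0.34 ± 0.17, edgeR adjusted p = 0.309).

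Fcgr2b is also made by B cells, whose 12 marker genes summed to 117 and 59.3 CPM in Esr2-KO and 17.9 and 54.2 CPM in WT, with all 12 fold changes positive and none called. The part of B cells in the values of Fcgr2b was not tested. Per Fcgr3 count there were 0.861 and 0.747 Fcgr2b counts in Esr2-KO and 1.11 and 1.04 in WT. Fcgr2b shares 7.12% of its windows with other transcripts, mostly Fcgr3, exons of Gm38204 overlap it on the opposite strand, and it passed the threshold without Esr2-KO 1 (log2 fold change -0.89, edgeR adjusted p = 0.0140), while without Esr2-KO 2 it was at -0.55 (adjusted p = 0.184).

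The other macrophage genes had small or noisy differences. Tyrobp, the adaptor of many myeloid receptors, overlapped with 27.8 and 25.3 CPM in Esr2-KO and 26.6 and 32.3 CPM in WT, and so did the dead-cell receptor Mertk with 32.1 and 29.7 against 31.1 and 42.5 CPM in WT. Trem2, a lipid-sensing receptor that signals through Tyrobp, stood at 4.15 and 3.87 CPM in Esr2-KO and 2.56 and 3.22 CPM in WT (0.47 ± 0.29, edgeR adjusted p = 0.411). Timd4, a receptor for phosphatidylserine on long-lived gut macrophages, was low at 1.17 and 1.67 CPM in Esr2-KO and 1.24 and 0.977 CPM in WT. Sirpa, the receptor for the signal CD47, stood at 33.9 and 31.4 CPM in Esr2-KO and 28.4 and 31.2 CPM in WT (0.13 ± 0.13, and -0.027 with library totals). None of these 5 genes had a difference beyond its error that passed the test.

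**Figure D2:**
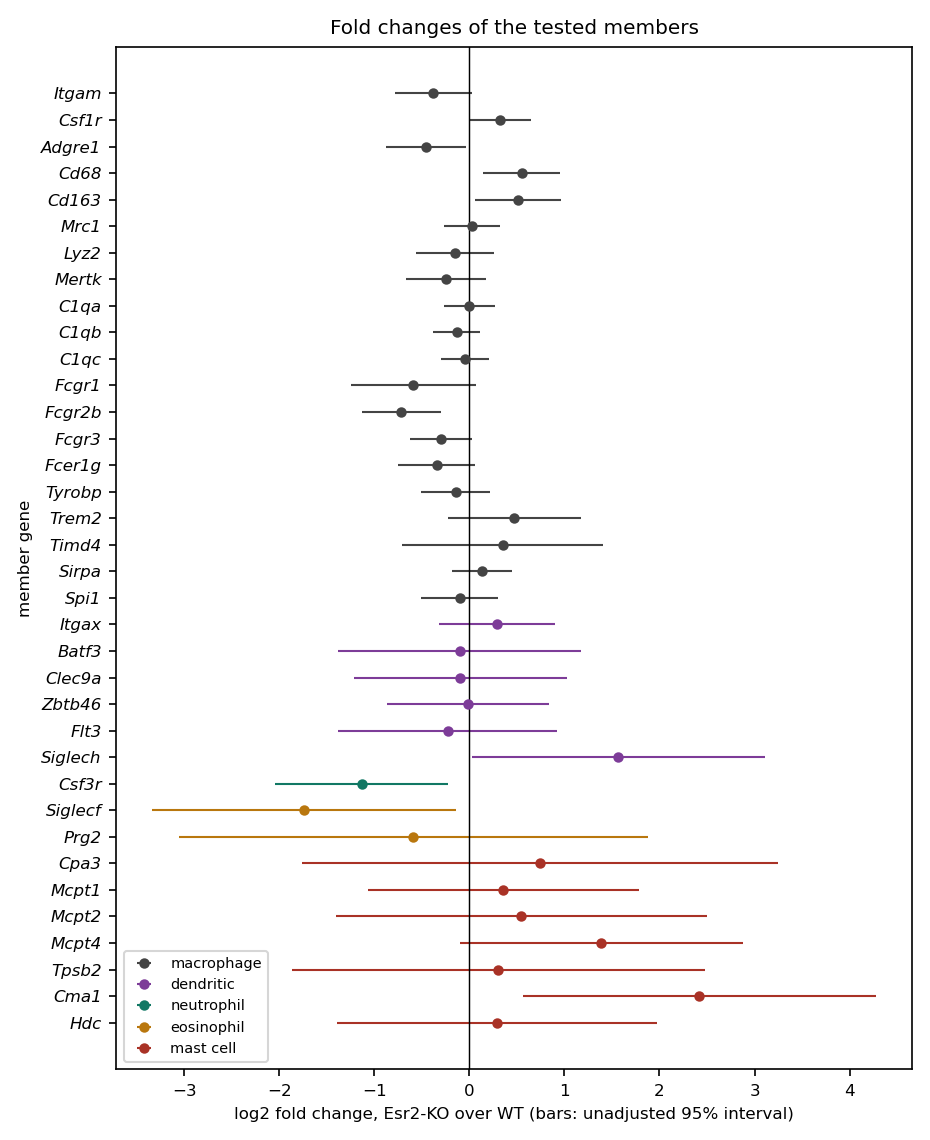
Log2 fold change of each of the 36 tested members, Esr2-KO over WT, from edgeR's fit over all genes (points), with unadjusted 95% intervals (bars). Intervals were narrow for macrophage genes, such as C1qa from -0.27 to 0.26, and wide for eosinophil and mast cell genes, such as Prg2 from -3.06 to 1.88.

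Of the 7 dendritic cell genes 6 could be tested, none passed, and 2 were positive and 4 negative, with a median log2 fold change of -0.06. Siglech, a surface lectin of plasmacytoid dendritic cells, stood at 2.37 and 2.28 CPM in Esr2-KO and 0.303 and 1.26 CPM in WT, or 81 and 60 counts against 11 and 44. Both Esr2-KO libraries lay above both WT libraries, the log2 fold change was 1.57 ± 0.65, and the edgeR adjusted p was 0.237. WT 1, the lowest library for Siglech, was also the lowest for the B cell and follicle markers (sum 17.9 CPM), where Cr2 had 1 count, and for 5 red blood cell genes (13.5 CPM, against 122 and 165 CPM in Esr2-KO and 77.9 CPM in WT 2). Siglech was at 0.88 without WT 1 and at 2.94 without WT 2 (edgeR adjusted p = 0.600 and 0.0909), and the part of either list in the result was not tested.

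Markers of conventional dendritic cells overlapped between the groups. Itgax, the integrin CD11c that macrophages also carry, had 10.8 and 7.74 CPM in Esr2-KO and 6.61 and 8.51 CPM in WT (0.29 ± 0.26). Clec9a, a receptor for dead cells on the cross-presenting type, had 1.46 and 0.872 CPM in Esr2-KO and 1.10 and 1.41 CPM in WT. Batf3, a transcription factor of that type, had 1.17 and 0.569 CPM in Esr2-KO and 0.936 and 0.949 CPM in WT. The spread within a group was as wide for the growth factor receptor Flt3, with 2.81 and 1.52 CPM in Esr2-KO and 1.71 and 3.39 CPM in WT (-0.23 ± 0.48). The transcription factor Zbtb46 had 3.33 and 5.73 CPM in Esr2-KO and 3.74 and 5.40 CPM in WT (-0.02 ± 0.36). Clec10a, a lectin that binds galactose sugars, had 2 and 4 counts in Esr2-KO and 0 in both WT libraries and was too sparse to test.

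The neutrophil members had few or no counts in these libraries. The calprotectin genes S100a8 and S100a9 had 0 and 0, and 5 and 0, counts in Esr2-KO, against 0 and 1, and 1 and 4, counts in WT. Myeloperoxidase (Mpo) had 0 and 4 counts in Esr2-KO and none in WT. The receptor of granulocyte colony-stimulating factor, Csf3r, was the 1 neutrophil gene with enough counts, at 1.49 and 1.02 CPM in Esr2-KO and 3.03 and 2.53 CPM in WT. Both Esr2-KO libraries lay below both WT libraries, by -1.13 ± 0.38 on the log2 scale (edgeR adjusted p = 0.166), and 11.2% of its windows are shared with other transcripts, mostly AC105061.2. Among 13 further neutrophil genes 7 could be tested, of which 1 was called higher and 0 lower, against 1.30% and 1.39% of all tested genes. The 7 did not go one way, with 4 positive and 3 negative. Both Esr2-KO libraries lay above both WT libraries for 3 of them and below for 2 (27.0% and 27.7% of all tested genes). The gene called was Ly6g, the surface antigen used to stain neutrophils (2.97 ± 0.54, edgeR adjusted p = 0.0461, and 0.0505 with upper-quartile factors). Ly6g had 7231 and 4687 counts in Esr2-KO and 388 and 1358 in WT, in libraries with at most 1 count of S100a8. It was at 2.32 without WT 1 and 4.20 without WT 2 and passed in both cases.

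Eosinophil genes were low in 1 library. Siglecf, a lectin of eosinophils that intestinal tuft cells of the mouse also make, stood at 2.22 and 0.417 CPM in Esr2-KO and 3.80 and 5.20 CPM in WT, -1.74 ± 0.67 on the log2 scale (edgeR adjusted p = 0.209). Prg2, the major basic protein of eosinophil granules, had 42 and 1 counts in Esr2-KO and 33 and 37 in WT (-0.59 ± 1.03). Esr2-KO 2 was thus the low library for both, and Esr2-KO 1 lay above both WT libraries for Prg2 and below them for Siglecf. The eosinophil chemokine receptor Ccr3 had the same shape as Prg2, with 64 and 5 counts in Esr2-KO and 55 and 61 in WT, and the interleukin 5 receptor chain Il5ra had 32 and 5 in Esr2-KO and 11 and 30 in WT. Ear2, a ribonuclease of eosinophil granules, had 55 and 20 counts in Esr2-KO and 37 and 64 in WT, so that Esr2-KO 2 was the lowest library here too.

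With Esr2-KO 2 and its pancreatic transcripts left out, Siglecf was at -1.01 (edgeR adjusted p = 0.292) and Prg2 at 0.32 (adjusted p = 0.878). Without Esr2-KO 1 Siglecf was at -3.42 and Prg2 at -4.56, values that rest on 11 and 1 counts in Esr2-KO 2. A list of 12 tuft cell genes, written after values were seen, summed to 75.6 and 59.3 CPM in Esr2-KO and 108 and 119 CPM in WT. Of its 11 tested genes all were negative, 9 were lower in both Esr2-KO libraries than in both WT libraries (27.7% of all tested genes were), and none passed. Some genes of the list, such as Alox5 and Ptgs1, are made by myeloid cells too. Its defining kinase Dclk1 had 15.9 and 12.1 CPM in Esr2-KO and 23.3 and 26.1 CPM in WT, and its cytokine Il25 had 4 and 0 counts in Esr2-KO and 2 and 7 in WT. The part of tuft cells in the values of Siglecf was not tested.

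**Figure D3:**
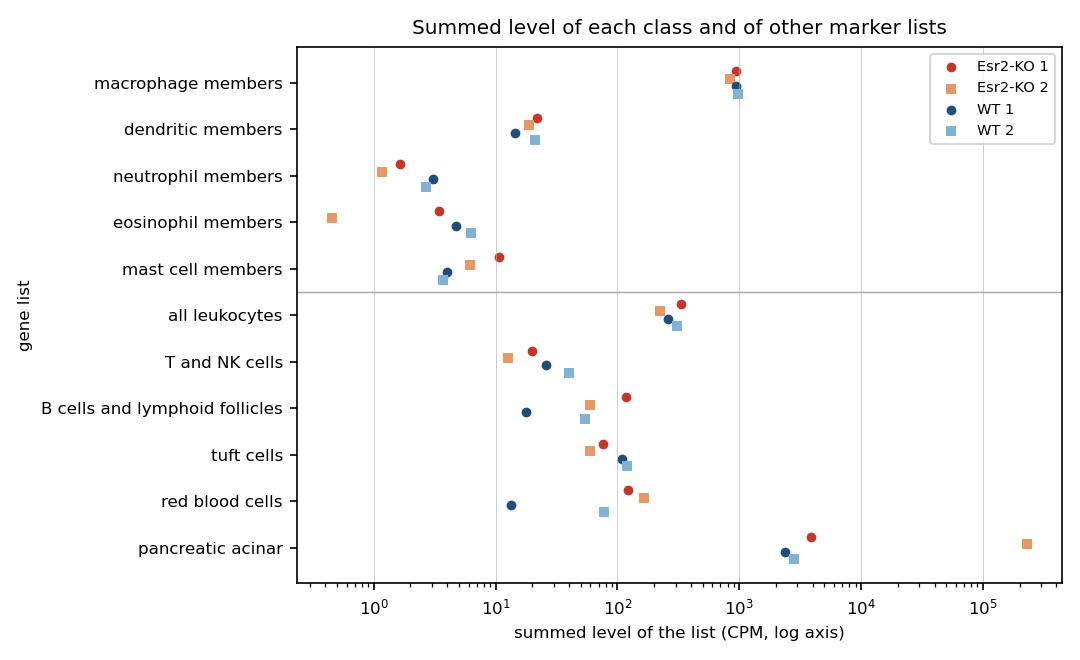
Summed level (CPM, log axis) of each class of members (above the line) and of marker lists of other cells (below it) in the 4 libraries, 1 point per library. The macrophage sums lay between 838 and 970 CPM, the eosinophil sum was lowest in Esr2-KO 2 at 0.455 CPM, and that library stood apart in pancreatic genes.

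Mast cell genes were positive in 7 of 7 tested, with a median log2 fold change of 0.54 and none past the threshold, but all except Hdc fell into 2 patterns. Cma1, a chymase of connective tissue mast cells (chromosome 14, 55941451 to 55944675, GRCm38), had 142 and 104 counts in Esr2-KO and 6 and 47 in WT. That is 4.15 and 3.94 CPM in Esr2-KO and 0.165 and 1.35 CPM in WT, 2.42 ± 0.78 on the log2 scale (edgeR adjusted p = 0.151). Mcpt4, the other chymase of that type, had 20 and 16 counts in Esr2-KO and 8 in each WT library (1.39 ± 0.62, edgeR adjusted p = 0.273). In both genes the Esr2-KO libraries lay close to each other and above the WT libraries. Other transcripts share 5.38% of the windows of Cma1 and 5.48% of those of Mcpt4.

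In the other pattern the order of the libraries crossed the genotypes. The mucosal proteases Mcpt1 and Mcpt2 had 69 and 18, and 50 and 7, counts in Esr2-KO against 45 and 31, and 28 and 15, counts in WT. Carboxypeptidase Cpa3, a granule enzyme of all mast cells, had 43 and 3 counts in Esr2-KO and 23 and 7 in WT. The tryptase Tpsb2, although typical of connective tissue like Cma1 and Mcpt4, had 27 and 5 counts in Esr2-KO and 23 and 6 in WT. For all 4 genes Esr2-KO 1 was highest and WT 1 second, and for Mcpt1, Mcpt2 and Cpa3 WT 2 came next and Esr2-KO 2 last. Their log2 fold changes ran from 0.31 ± 0.91 for Tpsb2 to 0.74 ± 1.05 for Cpa3, and all 4 turned negative without Esr2-KO 1.

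Cma1 did not keep a fixed proportion to the mucosal proteases, with 2.06 and 5.78 Cma1 counts per Mcpt1 count in Esr2-KO and 0.133 and 1.52 in WT. Both Esr2-KO libraries lay above both WT libraries in this ratio, which was wide within each group and given no test. Cma1 was at 1.58 without WT 1 (edgeR adjusted p = 0.243) and passed without WT 2 at 4.60 (adjusted p = 0.0228), so that its size rests on which WT library it is set against. The enzyme of histamine synthesis, Hdc, overlapped at 12 and 9 counts in Esr2-KO and 7 and 13 in WT. Of the IgE receptor, which defines mast cells and basophils, the chains Fcer1a and Ms4a2 were at the floor. Fcer1a was at 0 in Esr2-KO and had 4 and 0 counts in WT, and Ms4a2 had 0 or 1 count in every library. Its signalling chain Fcer1g, listed with the macrophage genes, was well above the floor, with 447 and 398 counts in Esr2-KO and 618 and 650 in WT.

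Growth factors and attractants of these cells were examined as a list of 20, of which 14 were tested and 1 rose while none fell, against 1.30% higher and 1.39% lower of all tested genes. The gene that rose was Il34, an alternative ligand of Csf1r, at 18.6 and 19.3 CPM in Esr2-KO and 7.46 and 8.48 CPM in WT (1.25 ± 0.18, edgeR adjusted p = 0.0265). Its call ended without WT 1 (adjusted p = 0.110) and without WT 2 (0.0592), and transcripts on the opposite strand overlap its exons. Csf1, the main ligand of Csf1r, stood at 28.2 and 30.2 CPM in Esr2-KO and 22.9 and 20.8 CPM in WT (0.42 ± 0.14, edgeR adjusted p = 0.155). Kitl, the mast cell growth factor, stood lower at 75.9 and 67.2 CPM in Esr2-KO and 104 and 107 CPM in WT (-0.56 ± 0.12, edgeR adjusted p = 0.0585). The chemokine Ccl8, a macrophage product, stood at 8.48 and 3.79 CPM in Esr2-KO and 18.2 and 22.2 CPM in WT (-1.71 ± 0.37, edgeR adjusted p = 0.0630). Ccl8 passed without Esr2-KO 1 at -2.41 (edgeR adjusted p = 0.000293) and without Esr2-KO 2 at -1.25 (0.0243), and was past the threshold with limma-voom (0.0454). With Esr2-KO 2 as the only Esr2-KO library, Kitl was at -0.65.

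Of 16 receptors for these factors 14 were tested and none passed, with 11 negative, a median of -0.48 and 6 lower in both Esr2-KO libraries than in both WT libraries (27.7% of all tested genes were). At an unadjusted p under 0.05 stood 4 of them, all lower, against 10.9% of all tested genes. Ccr1 had 9.21 and 8.53 CPM in Esr2-KO and 14.6 and 15.6 CPM in WT (-0.77 ± 0.18, edgeR adjusted p = 0.0773). With Esr2-KO 2 as the only Esr2-KO library, Ccr1 was at -0.82. It is a chemokine receptor of monocytes and of some lymphocytes, and the 12 markers of T and NK cells summed to 19.7 and 12.6 CPM in Esr2-KO and 25.7 and 40.4 CPM in WT. Kit, the receptor of Kitl, had 48.3 and 31.3 CPM in Esr2-KO and 77.3 and 66.5 CPM in WT (-0.85 ± 0.21, edgeR adjusted p = 0.0885), and the pacemaker cells of gut muscle make it as well as mast cells.

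**Figure D4:**
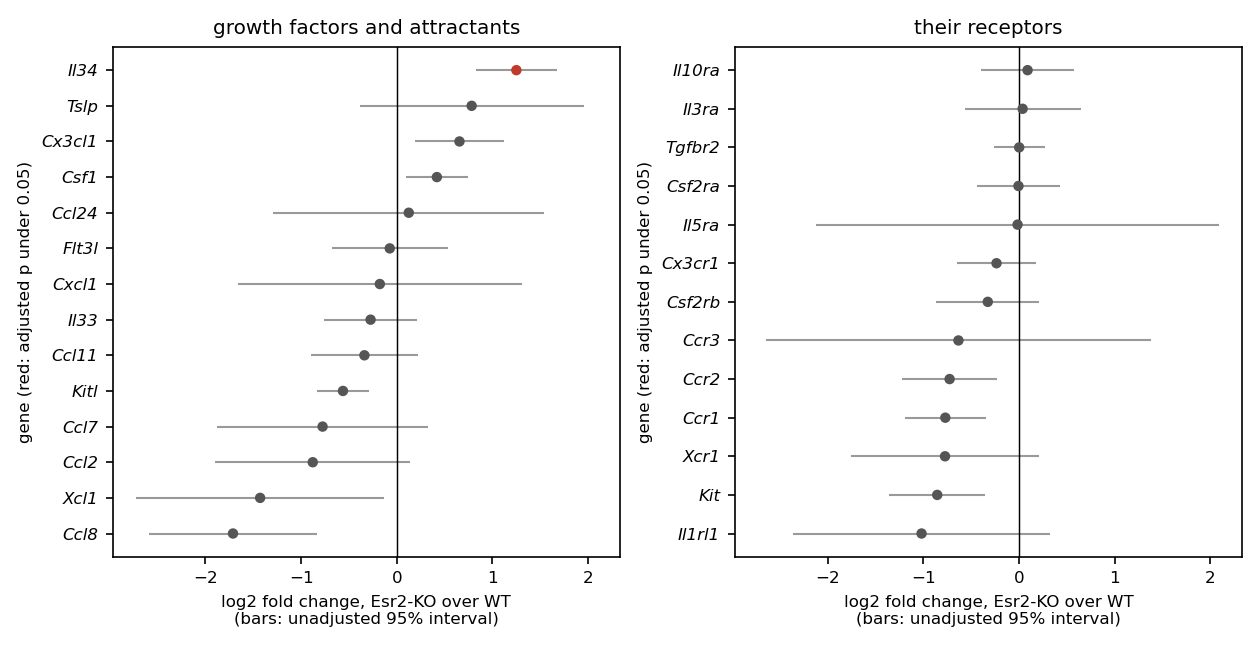
Log2 fold changes, Esr2-KO over WT, with unadjusted 95% intervals for 14 growth factors and attractants (left) and 13 receptors (right), the red point marking an adjusted p under 0.05. Il34 stood at 1.25, and most receptors lay on the negative side, among them Ccr1 at -0.77 and Kit at -0.85.

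Among 16 transcription factors of myeloid lineages 13 were tested and none passed, with a median of 0.04. Cebpb, a factor of macrophage differentiation and inflammation, stood at 13.4 and 11.3 CPM in Esr2-KO and 6.80 and 8.34 CPM in WT (0.70 ± 0.21, edgeR adjusted p = 0.135). Gata2, which mast cells need, stood at 4.09 and 4.59 CPM in Esr2-KO and 2.78 and 2.96 CPM in WT (0.60 ± 0.28, edgeR adjusted p = 0.286). None of 14 further macrophage and monocyte genes, 11 dendritic cell genes, 3 eosinophil genes and 9 mast cell and basophil genes passed. Nearest in the macrophage list were the monocyte chemokine receptor Ccr2, with 8.07 and 6.60 CPM in Esr2-KO and 11.6 and 12.7 CPM in WT (-0.72 ± 0.21, edgeR adjusted p = 0.118), and Folr2, a folate receptor of resident macrophages, with 14.5 and 14.0 CPM in Esr2-KO and 10.3 and 8.13 CPM in WT (0.63 ± 0.20, edgeR adjusted p = 0.144). These 2 lay on different sides. In the dendritic cell list Bst2, an antigen of plasmacytoid dendritic cells that interferon induces widely, had 25.2 and 24.3 CPM in Esr2-KO and 38.2 and 32.2 CPM in WT (-0.51 ± 0.14, edgeR adjusted p = 0.116). Cd24a, which epithelium makes as well, had 576 and 372 CPM in Esr2-KO and 801 and 863 CPM in WT (-0.81 ± 0.24, edgeR adjusted p = 0.13). In the mast cell and basophil list Rgs13, a regulator of G protein signals that tuft cells also make, had 206 and 40 counts in Esr2-KO and 403 and 621 in WT (-1.92 ± 0.58, edgeR adjusted p = 0.134). Slc18a2, which loads histamine into granules, had 39 and 16 counts in Esr2-KO and 72 and 88 in WT (-1.35 ± 0.46). Cyp11a1, a steroid-making enzyme of mast cells, had 52 and 44 counts in Esr2-KO and 6 and 21 in WT (2.05 ± 0.66, edgeR adjusted p = 0.152). Of the 9 tested genes of that list 4 were positive and 5 negative, with 1 higher and 3 lower at an unadjusted p under 0.05.

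A list of 12 genes made by all leukocytes, such as Ptprc, had a median of -0.01 with 6 positive and 6 negative. Its sums were 331 and 222 CPM in Esr2-KO and 262 and 310 CPM in WT, so that the groups overlapped.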

How the data were processed

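Colon RNA was measured in 4 libraries, 2 Esr2-KO and 2 WT. Per the labels' protocols, Trizol gave total RNA, ribosomal RNA was removed, and a directional kit made the libraries. The deposited values are raw counts per gene symbol, and reads were aligned with HISAT2 to mm10 per the submitters' processing notes. For the counting program, annotation and use of strand, nothing is given in the sources used here. The design text speaks of triplicates, but the count table holds 2 libraries per group, and all of them are used here.

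Genes were kept with filterByExpr (minimum count 10, minimum total 15), which left 17169 of 46095, scaled with TMM and tested with edgeR 4.0.16 (glmQLFit, glmQLFTest, two-sided) in R 4.3.3, Esr2-KO over WT, with Benjamini-Hochberg adjustment over all genes, a threshold of 0.05 and 2 residual degrees of freedom. Standard errors come from the F statistic, and the 95% intervals are not adjusted. Alternatives included DESeq2 1.42.0, limma 3.58.1 (voom), other scalings and filters, a replicate block and leaving out each library. The test was checked on simulated counts, where many genes changed 2-fold were missed and more of the calls were false than the threshold allows for. The counts of replicates differed by more than sampling noise (chi-square per degree of freedom 478 in Esr2-KO and 39.7 in WT). Exon lengths, coordinates and shared 50-base windows are from GENCODE M21 (GRCm38, the build mm10), where all 45 symbols matched, and promoters from RefSeq.

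The members, lists and tests were chosen with earlier results of these data known. The tuft cell list and the ratios of 2 genes were chosen after values were seen. The rule for named genes takes every member, and of the other lists genes past the threshold or the 2 with the smallest p. Esr2, Csf1, Kitl, Ccl8, Cyp11a1, Slc18a2, Prss2, Trac, Il5ra, Dclk1, Il25, Cr2, Krt8, Epcam, Laptm5 and Ptprc were named beyond it, and lists of other cells are given by their sums and counts. Single genes of these lists that are not reported here still count in their lists.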

Additional observations from a re-analysis of the deposited data

How the results depend on the processing

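Over 15 alternatives (11 with all 4 libraries, 4 leaving out a library), the fold changes of 20 of 36 members kept their sign throughout, and of 33 under those with all 4 libraries. The cause was not tested in any case below. Genes called higher and lower (223 and 239) became 912 and 1004 with no low-count filter, 811 and 882 with DESeq2, 565 and 776 with the likelihood ratio test and 561 and 684 at an adjusted p under 0.1, and 487 were lower with library totals, a scaling that shifted all genes by -0.163. Leaving out a library gave 65 (without WT 1) to 783 (without Esr2-KO 1) higher and 100 to 1021 lower. Members called higher were 1 (Cma1) with no filter, DESeq2 or the likelihood ratio test, and 0 to 1 leaving out a library. Members called lower were 2 with no filter (Fcgr2b, Siglecf), 1 (Fcgr2b) with DESeq2, the likelihood ratio test or an adjusted p under 0.1, and 0 to 3 leaving out a library.

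Fcgr2b passed at -0.71 with no filter and with DESeq2 and at -0.72 with the likelihood ratio test, Cma1 at 2.43, 2.42 and 2.41 under the same 3, and Siglecf at -1.73 with no filter. C1qa turned to 0.00069 with DESeq2 size factors, 0.0070 with no filter, 0.0012 with DESeq2 and 0.0093 without pancreatic genes, and with library totals Mrc1 turned to -0.13 and Sirpa to -0.027. The macrophage median was -0.14 with upper-quartile factors and -0.28 with library totals.

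Leaving out a library, log2 fold changes ran from -0.031 to 0.11 for Mrc1, -0.35 to 0.029 for Lyz2, -0.46 to 0.011 for Mertk, -0.079 to 0.078 for C1qa, -0.28 to 0.019 for Tyrobp, -0.89 to -0.55 for Fcgr2b, -0.72 to 0.32 for Batf3, -0.52 to 0.23 for Clec9a, -0.45 to 0.33 for Zbtb46, -0.74 to 0.36 for Flt3, -3.42 to -1.01 for Siglecf, -4.56 to 0.32 for Prg2, -1.84 to 1.77 for Cpa3, -0.64 to 0.92 for Mcpt1, -1.17 to 1.28 for Mcpt2, -1.07 to 1.51 for Tpsb2, 1.58 to 4.60 for Cma1 and -0.11 to 0.85 for Hdc. A group left with 1 library is assumed to vary like the other. Medians ran from -0.22 to 0.11 over all members, -0.12 to -0.043 for macrophage, -0.24 to 0.33 for dendritic, -1.43 to -0.89 for neutrophil, -3.99 to -0.34 for eosinophil and -0.64 to 1.36 for mast cell genes. Of the growth factors and receptors, Ccl8, Kitl and Ccr1 passed with no filter, DESeq2 and the likelihood ratio test, and Ccl8 also with limma-voom and library totals.

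With the replicate number as a block (replicate block), 212 genes were called higher and 278 lower, and no member passed (smallest adjusted p 0.0773, Fcgr2b). Deviations of same-numbered libraries correlated at -0.0888 over 17169 genes. With so few libraries a group, this value cannot decide whether same-numbered libraries share more than a number, and the labels do not say. Depth limits the genes with few counts in a library.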
